A study of Mus musculus with 6 samples.

Results

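Of the 55254 gene symbols in the deposited count table, 10 were taken here as genes of lipoprotein assembly and of the export of cholesterol from macrophages: the apolipoprotein genes Apoe, Apoc1 and Apoc2, the exporters Abca1 and Abcg1, the lipase Lpl, the liver X receptor genes Nr1h3 and Nr1h2, the oxysterol enzyme Ch25h and the lysosomal cholesterol carrier Npc2. They were picked by symbol, with the differences between the groups already known, so the values of the comparison below are a description and support no test of it. All 10 had counts in all 6 libraries. The libraries were made from bone marrow derived macrophages (BMDMs) of C57BL/6J mice, which were 6 to 8 weeks old. The cells were grown for 10 days with L929 conditioned medium and were then treated with LPS at 100 ng/ml for 4 hrs. The 3 control cultures were hnRNPDfl/fl, that is, they carried loxP sites around exons 3 and 4 of hnRNPD but no Cre. The 3 M-Δx3,4 cultures were LysCre+hnRNPDfl/fl, in which a Cre made from the LysM locus removes those exons in myeloid cells. No culture without LPS was part of the series, so the values say nothing of how LPS changes these genes. The labels do not say whether each culture came from a separate mouse, and the errors measure the spread between cultures only.

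Macrophages take up cholesterol from lipoproteins and dying cells, and NPC2 helps to move it out of the lysosome. The liver X receptors LXRα (Nr1h3) and LXRβ (Nr1h2) are nuclear receptors that sense oxidized cholesterol and switch on the genes of the exporters ABCA1 and ABCG1, of LPL and of the apolipoprotein cluster that holds Apoe, Apoc1 and Apoc2. ABCA1 loads cholesterol onto lipid-poor apolipoproteins and ABCG1 onto larger particles. APOE is both made by macrophages and, like APOC1 and APOC2, made in quantity by the liver. AUF1, the protein of hnRNPD, binds AU-rich elements in 3′ UTRs and can change the stability of the RNAs that hold them.

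The reads came from the 3′ ends of transcripts, and the 10 genes differed in what lies there. The ends of the 3 apolipoprotein transcripts are shown because their reads carried the differences described below. They are given in mm10, 5′ to 3′ on the minus strand, with the polyadenylation signal in capitals, and were read from the GENCODE vM21 transcripts of the same build.
Apoe, chr7:19696272-19696301: ggcccttgcttAATAAAgattctccgagca
Apoc1, chr7:19689481-19689510: cagaccAATAAAaaacgtgtagaaggcaaa
Apoc2, chr7:19671579-19671608: gaaagAATAAAtgagtccaggttcactggc
The 6-base signal AATAAA or ATTAAA was looked for on the transcript strand in the last 40 bases, where 75.0% of 10096 coding transcripts tested held it. Of the transcripts counted for the 10 genes, 8 held it. Those of Nr1h3 and Apoe did not. The Apoe transcript with the most reads is annotated with an earlier end. The site shown for Apoe is therefore that of its main transcript, ENSMUST00000003066. For Apoc1 the site shown is that of ENSMUST00000045035, while the counts given below are of ENSMUST00000207978, which also held a signal.

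The AU-rich pentamer ATTTA, counted on the transcript strand with overlaps, was absent from the 3′ UTRs of Apoe (271 bases in its longest annotated form and 108 in the main transcript), Apoc1 (113 bases), Apoc2 (182 bases) and Nr1h3 (275 bases). It occurred 6 times in Abca1 (3156 bases), 5 times in Lpl (2428 bases), 3 times in Abcg1 (3703 bases), 3 times in Ch25h (452 bases), 2 times in Npc2 (2564 bases) and 1 time in Nr1h2 (369 bases). Long 3′ UTRs usually hold the pentamer: 94.3% of the genes with a 3′ UTR within 25% of the length of Abca1 had it, against 22.6% of those near the length of Apoc2 and 40.7% of those near Ch25h. The longer element TTATTTATT was found in Lpl alone among the 10. It was in 7.74% of the 10093 genes read and in 10.1% of those near the length of Lpl. Sites are shown for Lpl, whose window holds that longer element, for Ch25h, which had 3 pentamers in a short 3′ UTR, and for the exporter Abca1, with the pentamers in capitals.
Lpl, chr8:68906669-68906693, plus strand: ttagctttcaATTTATTTAttagct
Ch25h, chr19:34474132-34474156, minus strand: tgacaaagtaATTTAtataatgttt
Ch25h, chr19:34474109-34474133, minus strand: ttctatgtgaATTTAattgtggtct
Ch25h, chr19:34473825-34473849, minus strand: gaaatgatatATTTAtattgaaaaa
Abca1, chr4:53032983-53033007, minus strand: atccttcattATTTAacagaaatct
A match is a description of these letters and does not show binding.

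The libraries held 5852374 to 9008878 counts in all. Hnrnpd, the targeted gene, reached 177.8, 104.2 and 69.6 normalized counts of the transcript ENSMUST00000072750 among the controls, whereas the M-Δx3,4 cultures stayed at 52.8, 12.6 and 16.0. All 11 macrophage markers listed (among them Adgre1, Csf1r and Itgam) had counts in every library. Control replicate 3 stood apart, since 26 of 27 liver genes listed had counts there, against 3 to 6 in the other libraries, and 17 of them in no other library. Their summed level was 2222 normalized counts in control replicate 3 and between 413.8 and 510.8 in the other 5. Trf was highest there at 436.2 normalized counts, but this gene also reached 154.6 to 295.2 in the other libraries. Cyp2e1 (293.5), Alb (264.5), Fabp1 (168.2) and Mup3 (116.0) came next, and none of these 4 passed 32.9 in another library. That library also differed outside the liver list: the macrophage markers Itgam and Cd68 were 0.45-fold and 2.04-fold the mean of the other control cultures. Because the liver makes apolipoproteins, the fold changes of the 10 genes are given with and without that library. The part of liver RNA in its apolipoprotein reads was not tested.

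Counts were normalized by the median of ratios, and fold changes and their SEs were fitted by edgeR's quasi-likelihood test on all transcripts. The fold changes run from control to M-Δx3,4, so that a negative log2 value is lower in M-Δx3,4. For each gene the transcript that was most abundant over the 6 libraries is given. In the fit of all libraries 3 of the 10 genes, Apoe, Apoc1 and Apoc2, passed the threshold (a log2 fold change of 1 or more in either direction with an unadjusted p under 0.05), all 3 of them lower. Of all 32475 transcripts tested, 3.3% passed it, and 2.05% passed it with a lower value. Without control replicate 3 Apoc2 alone passed, where 2.35% of 30241 transcripts did, and 1.18% did with a lower value. None of the 10 had an adjusted p under 0.05, nor did any transcript in the table (0%). By edgeR's quasi-likelihood test, 4.13% of all transcripts had an unadjusted p under 0.05. The median log2 fold change of the 10 genes was -0.24, with 4 higher and 6 lower, beside -0.03 over all transcripts tested. Without control replicate 3 it was 0.01, with 5 higher and 5 lower, beside 0.02 over all transcripts.

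**Figure D1:**
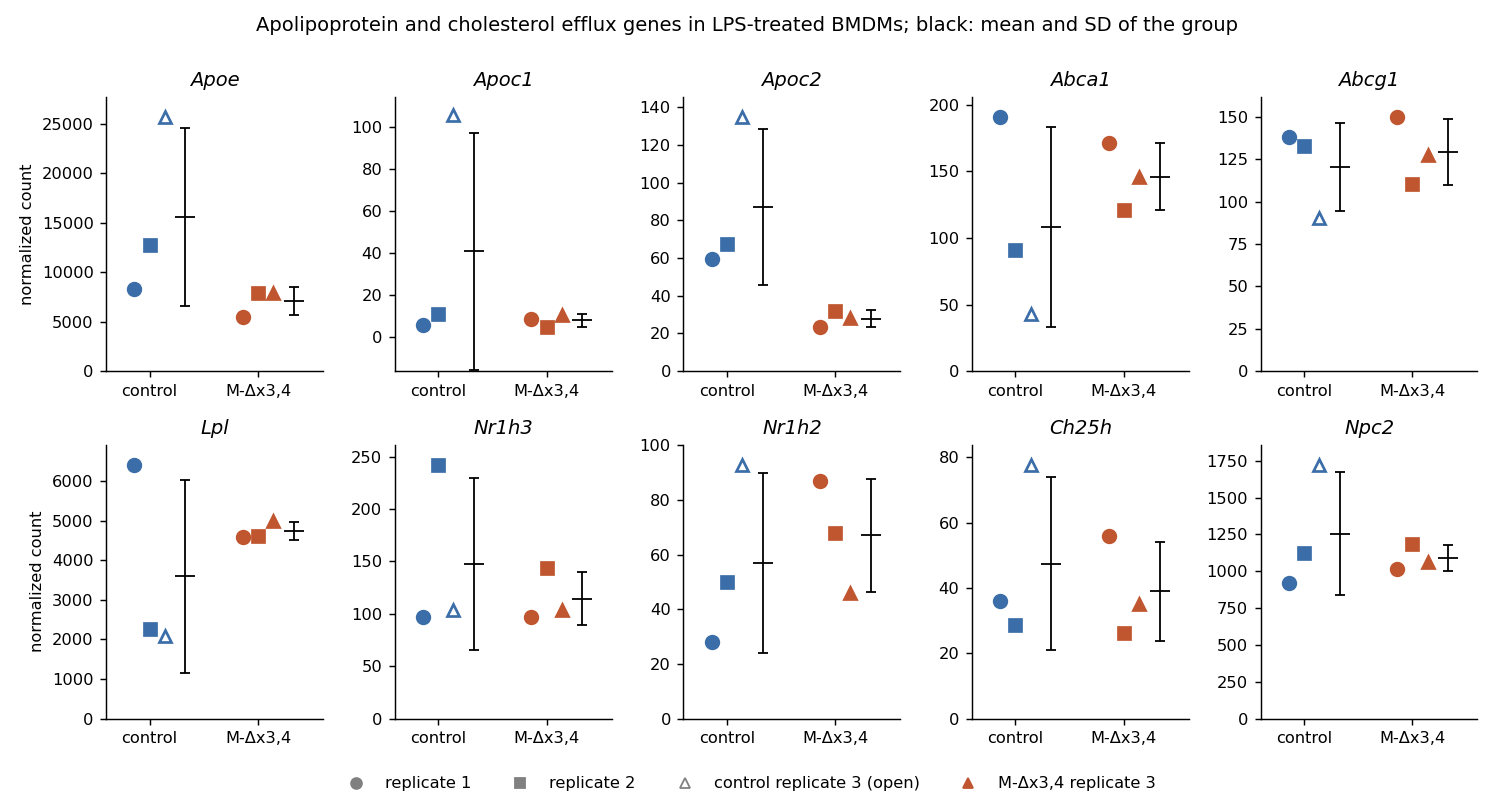
Normalized counts (vertical axes, each from its own range) of the 10 genes in the 3 control (blue) and 3 M-Δx3,4 (red) cultures; symbols mark the replicate, control replicate 3 is open, and the black marks give each group's mean and SD. In Apoe and Apoc2 every M-Δx3,4 point lies below every control point, and in the other 8 genes the groups overlap.

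Apoc2, which encodes the cofactor that LPL needs to split triglycerides, was the only one of the 10 genes past the threshold both with and without control replicate 3. Its level was 59.3, 67.4 and 134.6 normalized counts in the control cultures and 23.5, 32.0 and 28.3 in the M-Δx3,4 cultures, so that the groups did not overlap with or without control replicate 3. The means were 87.1 ± 41.3 and 27.9 ± 4.3 (SD, n = 3 each). The fitted log2 fold change was -1.63 (SE 0.43), and -1.17 (SE 0.40) without control replicate 3, in which Apoc2 was 2.12-fold above the mean of the other control cultures. Over the 6 fits that left out 1 library each, it lay between -1.84 and -1.17. Libraries did not overlap in 8.88% of all transcripts tested and were lower without overlap in 4.78%; without control replicate 3 these shares were 16.1% and 8.61%. Apoc2 was counted on chr7:19671330-19671760, of which 182 bases are its 3′ UTR and the rest lies beyond its annotated end. The same reads were also counted for the overlapping gene Gm44805, so the 2 genes cannot be told apart there.

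Apoe had by far the highest level of the 10 genes. In the control cultures it had 8317, 12745 and 25641 normalized counts, and in the M-Δx3,4 cultures 5455, 7880 and 7920. The lowest control culture was only slightly above the highest M-Δx3,4 culture, and control replicate 3 was 2.43-fold above the mean of the other control cultures. The means were 15568 ± 9000 and 7085 ± 1412 (SD, n = 3 each). The log2 fold change was -1.14 (SE 0.37) with all libraries and -0.56 (SE 0.29) without control replicate 3, where it no longer passed the threshold. It also fell short of a log2 change of 1 without M-Δx3,4 replicate 1 (-0.98).

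These Apoe reads were counted on chr7:19696371-19696619, a window of 249 bases that the annotation places beyond the end of a shorter Apoe transcript and of which 240 bases are coding and 9 are 3′ UTR of the main transcript. It lies 99 to 347 bases upstream of the 3′ end of Apoe at position 19696272 of chromosome 7. The region at that 3′ end, counted for the main transcript, had 6548, 10944 and 21303 normalized counts in the control cultures and 4803, 7006 and 6319 in the M-Δx3,4 cultures. There M-Δx3,4 replicate 2 was above control replicate 1, so the groups overlapped, and the log2 fold changes were -1.10 with all libraries and -0.52 without control replicate 3. A window 214 to 462 bases upstream had 5012, 6295 and 15787 normalized counts against 2930, 3453 and 4724, without overlap. Its log2 fold change was -1.29, and -0.60 without control replicate 3, where it no longer passed the threshold. In a window 323 to 571 bases upstream M-Δx3,4 replicate 3 (2511) was above control replicate 1 (2363), so the groups overlapped, with log2 fold changes of -1.12 and -0.51. A window 735 to 1202 bases upstream had between 0.0 and 11.6. The windows overlap and share reads, so they are not separate measurements of Apoe.

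**Figure D2:**
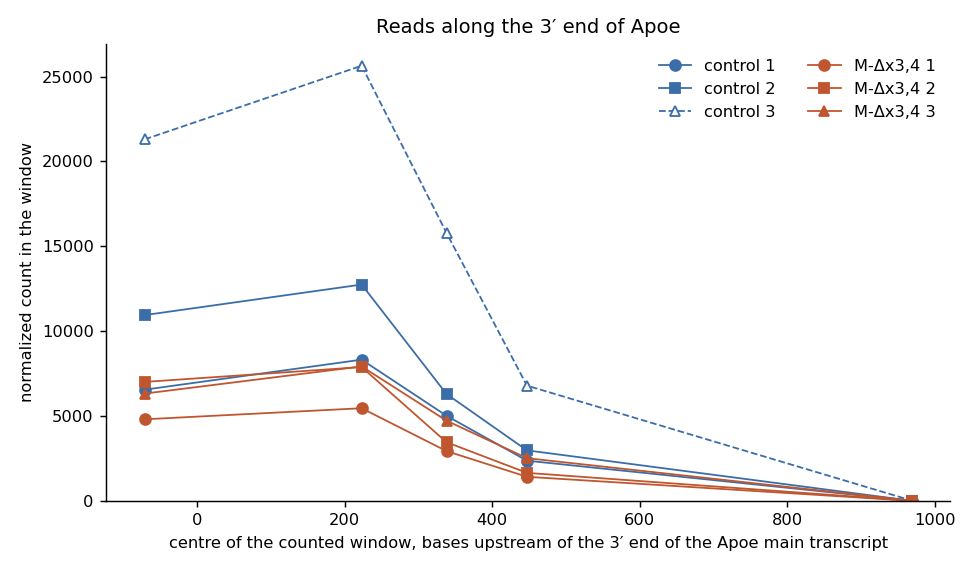
Normalized counts of 5 counted windows along the 3′ end of Apoe (vertical axis) against the centre of each window in bases upstream of the 3′ end of the main transcript (horizontal axis; below 0 is downstream), with 1 line per library. The windows overlap and run from 249 to 468 bases. The count was highest in the window 99 to 347 bases upstream in all 6 libraries, and control replicate 3 (open, dashed) was highest in each window.

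The rule did not use the spread of reads between the windows of 1 gene, which could therefore be tested. The reads in the Apoe window 214 to 462 bases upstream came to 60.3%, 49.4% and 61.6% of those in the window 99 to 347 bases upstream in the control cultures, and to 53.7%, 43.8% and 59.6% in the M-Δx3,4 cultures. The means were 57.1% ± 6.7 and 52.4% ± 8.0 (SD, n = 3 each; exact permutation test, two-sided, p = 0.5, adjusted over 5 such tests 0.75). In Npc2, 47.2% of the reads of the region (95% Clopper-Pearson interval 43.7 to 50.8) in control replicate 1, 54.3% (51.3 to 57.3) in replicate 2 and 41.1% (38.6 to 43.7) in replicate 3 fell on chr12:84756243-84756491, a window inside its 3′ UTR. In the M-Δx3,4 cultures the shares were 59.5% (56.4 to 62.5), 61.6% (58.8 to 64.3) and 49.5% (46.8 to 52.2). The intervals cover counting error only, and reads amplified by PCR are not independent. The groups overlapped (exact permutation test, two-sided, p = 0.2, adjusted 0.75). The same tests of inner windows of Abcg1, Nr1h3 and Nr1h2 gave adjusted p-values of 1.0, 0.75 and 0.75 (exact permutation test, two-sided), and 3 cultures against 3 cannot give a p under 0.1.

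Apoc1, whose protein inhibits lipoprotein uptake and lipases, was high in 1 library only. It had 5.8, 11.2 and 105.6 normalized counts in the control cultures and 8.8, 4.9 and 10.7 in the M-Δx3,4 cultures. Control replicate 3 was 12.4-fold above the mean of the other control cultures, and the other 5 libraries lay between 4.9 and 11.2 in no order by genotype. The log2 fold change was -2.30 (SE 0.83) with all libraries and -0.06 (SE 0.74) without control replicate 3. It also missed the threshold without M-Δx3,4 replicate 2, at -2.04. A second Apoc1 transcript, ENSMUST00000207500, had 8.1, 4.1 and 42.9 normalized counts in the control cultures and 2.0, 1.0 and 3.8 in the M-Δx3,4 cultures. That transcript was lower in M-Δx3,4 without overlap, but at 1 to 7 reads in each library other than control replicate 3. In bulk RNA, a lower level of a transcript cannot be told apart from fewer cells that make it.

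Ratios between 2 genes of the same library do not depend on the normalization. There were 7.13, 5.29 and 5.25 reads of Apoc2 per 1000 reads of Apoe in the control cultures and 4.30, 4.07 and 3.57 in the M-Δx3,4 cultures. The mean ratios were 5.89 ± 1.07 and 3.98 ± 0.37 (SD, n = 3 each), without overlap, and control replicate 3 was not set apart in this ratio. For Apoc1 the ratio was 0.70, 0.88 and 4.12 per 1000 in the control cultures and 1.61, 0.62 and 1.35 in the M-Δx3,4 cultures, so that control replicate 3 was again far above the rest. Apoe reads per read of Npc2 were 9.04, 11.36 and 14.89 in the control cultures and 5.38, 6.64 and 7.46 in the M-Δx3,4 cultures, also without overlap. Apoe reads per read of Lpl reached 5.60 and 12.29 in control replicates 2 and 3, but did not pass 1.71 in any M-Δx3,4 culture or in control replicate 1. Reads of Nr1h3 per read of Nr1h2 overlapped, at 3.46, 4.84 and 1.11 in the control and 1.11, 2.11 and 2.25 in the M-Δx3,4 cultures. The ratios with Apoe or Apoc2 reuse differences known when the genes were picked. How often other gene pairs do not overlap was not computed.

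**Figure D3:**
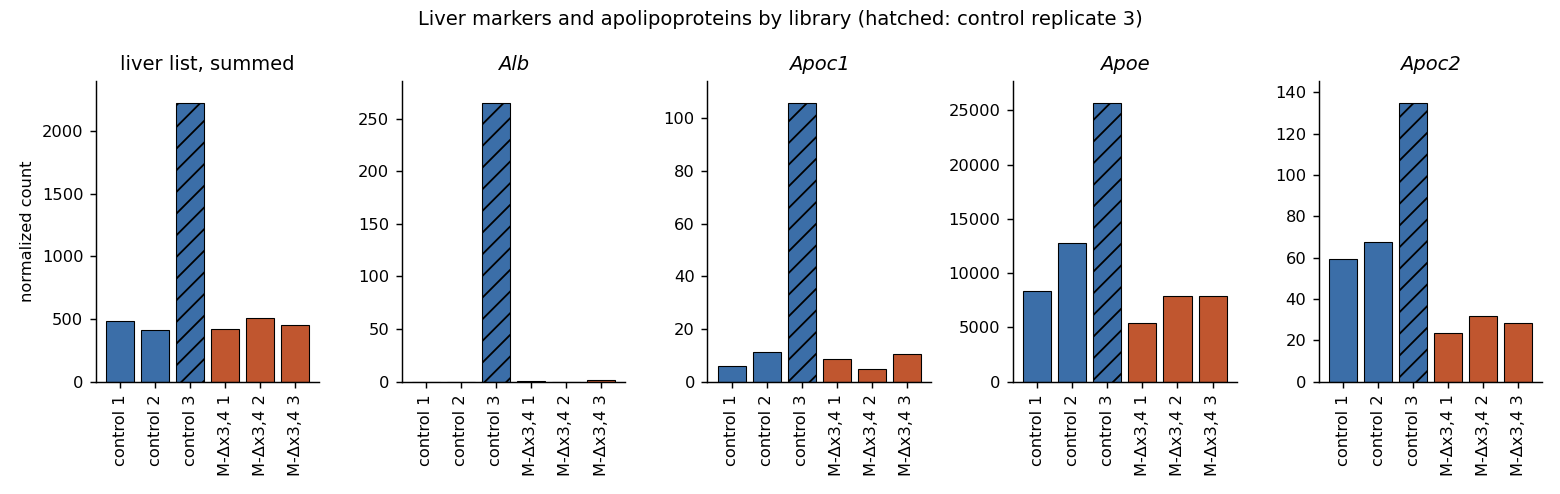
Normalized counts (vertical axes from 0) of the summed list of 27 liver genes, of Alb, and of Apoc1, Apoe and Apoc2 in each library (horizontal axes; blue control, red M-Δx3,4). Control replicate 3 (hatched) is the highest library in all 5 panels, and without it the M-Δx3,4 bars remain below the control bars for Apoe and Apoc2 but not for Apoc1.

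Of the lists of other cell types, that of B cells differed between the groups in its sum, with genes in both directions. The summed level of 7 B cell genes was 301.0, 321.8 and 358.5 normalized counts in the control cultures and 165.3, 142.7 and 146.7 in the M-Δx3,4 cultures. Igkc, an immunoglobulin light chain, was the highest of them in all 6 libraries (log2 fold change -1.56, and -1.50 without control replicate 3). Of the 4 B cell genes tested 2 were higher and 2 lower, and Cd79b, part of the B cell receptor, had a log2 fold change of 0.39, while the B cell genes Ms4a1 and Pax5 did not pass 3.1 in any library. The summed level of the 11 macrophage markers overlapped between the groups, at 12427 to 14216 in the control and 11162 to 12650 in the M-Δx3,4 cultures. Of these 11, Lyz2, the lysozyme gene whose locus drives the Cre, was lower without overlap (log2 fold change -0.91, and -0.82 without control replicate 3). Over all transcripts tested, 4.78% were lower without overlap, and 8.61% without control replicate 3. For summed lists such a share was not computed. The 9 neutrophil genes summed to 388.2 to 695.0 in the control and 482.2 to 728.3 in the M-Δx3,4 cultures, with Elane at 0.0 in all 6. The part of these differences in the values of Apoe and Apoc2 was not tested.

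Abca1, the exporter to lipid-poor apolipoproteins, ran from 42.9 to 190.6 normalized counts among the control cultures. The control values were 190.6, 90.9 and 42.9, and those of the M-Δx3,4 cultures, 171.2, 121.4 and 146.0, lay inside that range. The log2 fold change was 0.43 (SE 0.46), and 0.07 (SE 0.38) without control replicate 3, which held 0.30 of the mean of the other control cultures. Without control replicate 1 it was 1.12 and passed the threshold. Abcg1, the exporter to larger particles, varied less, with 138.3, 132.8 and 90.5 normalized counts in the control cultures and 149.7, 110.7 and 127.6 in the M-Δx3,4 cultures. Its log2 fold change was 0.10 (SE 0.35) and -0.06 (SE 0.35) without control replicate 3. Reads of Abca1 per read of Abcg1 were 1.38, 0.68 and 0.47 in the control cultures and 1.14, 1.10 and 1.14 in the M-Δx3,4 cultures, which overlapped in level and had SDs of 0.47 and 0.03.

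Lpl encodes the lipase that frees fatty acids from lipoproteins. Its level was 6409, 2276 and 2087 normalized counts in the control cultures and 4582, 4617 and 4992 in the M-Δx3,4 cultures. The control cultures thus lay on both sides of the M-Δx3,4 cultures, at 3591 ± 2442 against 4731 ± 228 (SD, n = 3 each). The log2 fold change was 0.40 (SE 0.39), and 0.14 (SE 0.35) without control replicate 3. The value moved with each control culture left out: it was 0.15 without control replicate 2, and 1.12 without control replicate 1, where it passed the threshold. In that fit 10.4% of 30963 transcripts passed it, so the calls of Lpl and Abca1 there stand against a high background. Control replicate 1 also had the highest Abca1 of the 6 libraries and the lowest Nr1h2.

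Nr1h3, the liver X receptor LXRα of macrophages and liver, had 96.5, 242.1 and 103.3 normalized counts in the control cultures and 96.8, 143.7 and 103.2 in the M-Δx3,4 cultures. Apart from control replicate 2 and M-Δx3,4 replicate 2, the libraries lay between 96.5 and 103.3. The log2 fold change was -0.36 (SE 0.41) with all libraries, -0.55 (SE 0.40) without control replicate 3 and 0.20 without control replicate 2. The annotated gene Madd overlaps the window counted. Nr1h2, the broadly expressed receptor LXRβ, had 27.9, 50.1 and 92.8 normalized counts in the control cultures and 87.1, 68.0 and 45.9 in the M-Δx3,4 cultures. Its log2 fold change was 0.23 (SE 0.46), and 0.78 (SE 0.44) without control replicate 3, which was the highest of the 6 libraries. In both receptor genes the groups overlapped with and without that library.

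Ch25h, whose enzyme makes the oxysterol 25-hydroxycholesterol and is known to rise with LPS and interferon, had 36.0, 28.6 and 77.7 normalized counts in the control cultures and 55.8, 26.2 and 35.2 in the M-Δx3,4 cultures. Its log2 fold change was -0.28 (SE 0.47) with all libraries and 0.28 (SE 0.45) without control replicate 3. Npc2 had 920.5, 1122 and 1722 normalized counts in the control cultures and 1014, 1188 and 1062 in the M-Δx3,4 cultures. Its log2 fold change was -0.21 (SE 0.32), and 0.10 (SE 0.31) without control replicate 3. In both genes the direction turned with that 1 library, and the groups overlapped.

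**Figure D4:**
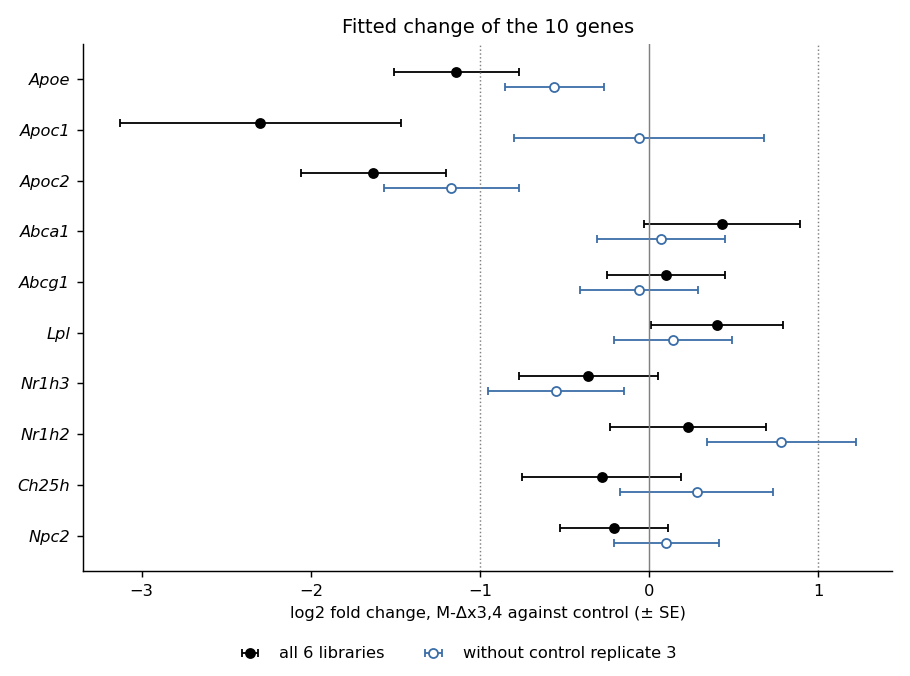
Fitted log2 fold change of M-Δx3,4 against control (horizontal axis, bars ± SE) of the 10 genes with all 6 libraries (black) and without control replicate 3 (open blue); dotted lines mark a log2 change of -1 and 1. Apoc2 alone stays below -1 in both fits, and Apoc1 moves from -2.30 to -0.06.

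Per kilobase of counted region, a length-corrected level, Apoe ranged from 21910 to 103000 normalized counts over the 6 libraries, above Lpl with 779.7 to 2394 in each of the 6. Lpl was in turn above Npc2, with 327.2 to 612.0, in each of the 6 libraries. From Npc2 downwards the ranges of neighbours overlapped. By mean level over the 6 libraries the order was Nr1h3 (249.9), Apoc2 (133.4), Nr1h2 (100.2), Ch25h (95.7), Apoc1 (67.7), Abca1 (37.4) and Abcg1 (31.6). It was not the same in both groups: Apoc2 stood at 202.1 per kilobase in the control cultures, above Nr1h2 (92.1) and Ch25h (104.9), and at 64.8 in the M-Δx3,4 cultures, below both (108.4 and 86.4). Apoc1 stood above Abca1 through control replicate 3, being the lowest of the 10 genes in the M-Δx3,4 cultures (22.5) and in the controls without that library (23.5). Reads gather at 3′ ends, so the level of a gene with a long 3′ UTR, such as Abca1 and Abcg1, is spread over more bases and understated by this measure.

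The other genes of cholesterol efflux, LXR signalling, sterol transport and lipolysis, were a list of 49. Of these, 42 were tested, 15 with a higher and 27 with a lower value in M-Δx3,4, with a median log2 fold change of -0.20 beside -0.03 over all transcripts. None was higher and 3 were lower past the threshold: the desaturase gene Scd1, the oxysterol hydroxylase gene Cyp7b1 and the apolipoprotein gene Apoc4. These are 7.14% of the genes tested, where 3.3% of all transcripts passed and 2.05% with a lower value. All 3 rested on control replicate 3, the only library in which they exceeded the filter for testing. Scd1 had 2, 0 and 32 reads in the control and 3, 2 and 2 in the M-Δx3,4 libraries, Cyp7b1 had 0, 3 and 8 reads in the control libraries and Apoc4 0, 0 and 12, with no read of the last 2 in M-Δx3,4. Without control replicate 3 these 3 genes were not tested, so they could not pass there. The list then had 36 genes tested and 0 past the threshold, with a median of -0.06 beside 0.02 over all transcripts.

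Among the most abundant genes of the list no difference passed the threshold. Cd5l, a secreted macrophage protein induced by LXR, had a log2 fold change of -0.04 (SE 0.28), and 0.03 without control replicate 3, at 5184 to 7666 normalized counts in the 6 libraries. Plin2, which coats lipid droplets, had -0.55 (SE 0.31). The phospholipid transfer protein gene Pltp had -0.36 (SE 0.31), the sterol transporter gene Gramd1a -0.23 (SE 0.37) and the fatty acid carrier gene Fabp5 -0.66 (SE 0.35). Without control replicate 3 these last 4 were at -0.38, -0.24, 0.07 and -0.51. Of the 11 LXR target genes, 4 were higher and 7 lower with all libraries, and of the 10 tested without control replicate 3, 6 were higher and 4 lower. Of the 7 genes of sterol transport out of the lysosome and plasma membrane, 2 were higher and 5 lower (2 and 4 without control replicate 3), and 0 passed the threshold. All 4 genes of fatty acid sensing had lower values (median -0.70), as did the 3 tested without control replicate 3 (median -0.59), and 0 of them passed the threshold. Of these, Pparg (SE 0.97) had 0 to 10 reads a library and Ppard (SE 1.13) had 1 to 5. Over all 32475 transcripts tested with all libraries, 16893 had a lower value.

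**Figure D5:**
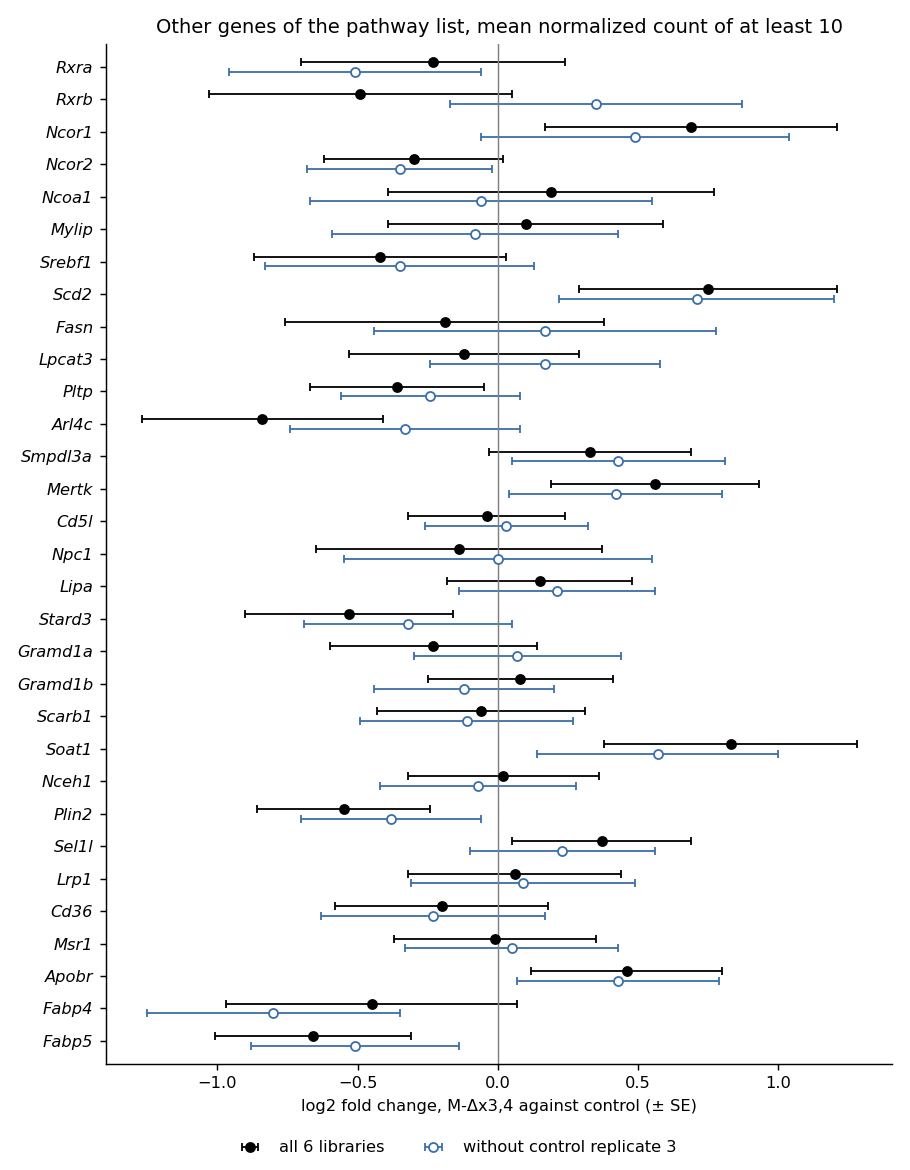
Fitted log2 fold change of M-Δx3,4 against control (horizontal axis, bars ± SE) of 31 other genes of the list with a mean of at least 10 normalized counts, with all libraries (black) and without control replicate 3 (open blue). The values run from -0.84 (Arl4c) to 0.83 (Soat1) with all libraries.

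The genes whose pattern over the 6 libraries was most like that of Apoe, of 4723 genes with a mean above 50 normalized counts, were Manf, Gm3375, Fzr1, Eif4a3 and Cndp2, with Pearson's r of log2 values between 0.986 and 0.994. Manf and Gm3375 were again among the 5 nearest without control replicate 3, with Dnaaf5, Aldh1b1 and Lrrc25. Beyond Gm44805, which shares its reads, the nearest to Apoc2 included Nomo1, Otud5 and Acot8 (r of 0.974 to 0.985), and without control replicate 3 they were Mid1ip1, Xkr8, Mrpl27 and Gm15484. The nearest to Abca1 included Ppp6r3, Nfat5, Ptpn12 and Atp1b3 (r of 0.991 to 0.996), none of which was among the 5 nearest without control replicate 3. These values describe 6 libraries that differ in genotype and in liver RNA, over many genes searched, and carry no test.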

How the data were processed

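RNA of 6 BMDM cultures was sequenced from the 3′ ends with QuantSeq FWD kits on an Ion Proton. The authors mapped the reads to mm10 with TopHat2 2.1.1 and then Bowtie2, and deposited the raw counts of reads per 3′ UTR region and library, made with metaseqR2. In the regions of these genes, other than Ch25h, the counted region ran 249 bases past the annotated end. Whether counting used strand is not given in the sources used here. The authors' table of their own comparison (fold changes, p-values and 24 columns of values per library) was not used.

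Region counts were added up to 142567 transcripts. A transcript was tested if 1 or more libraries exceeded 4.89, the median normalized count over the 52013 transcripts with at least 1 count. The groups were compared in edgeR 4.0.16 (quasi-likelihood test, median of ratios, no covariate), with Benjamini-Hochberg adjustment over all transcripts. Of the 60 transcripts listed for the 10 genes, 42 had a count, with 27 different sets of counts, of which 24 were tested. The fit was tested on simulated data before use. The genes, lists and alternatives were chosen with earlier results of these data known. The genes named were all 10 genes, the pathway genes with an unadjusted p under 0.05 or among the 6 of highest mean count, the 5 liver genes highest in control replicate 3, and the 5 nearest patterns of Apoe, Apoc2 and Abca1; Lyz2, Igkc, Cd79b, Arl4c and Soat1 were added after their values were seen. A few genes that this rule takes in are not reported here. Exact permutation tests used SciPy 1.17.1, and alternatives used DESeq2 1.42.0 and limma 3.58.1. Positions come from GENCODE vM21 (GRCm38, the same assembly as mm10).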

Additional observations from a re-analysis of the deposited data

How the results depend on the processing

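The number of the 10 genes past the threshold, 3 with all libraries, was 1 (Apoc2) by limma-voom and 1 (Apoc2) with the replicate number as a block, and ran from 1 to 5 when 1 library was left out. Without control replicate 1 it was 5, with Abca1 and Lpl in addition. Without control replicate 3 it was 1 also under TMM, under library totals and in DESeq2, settings chosen after seeing the data. Apoc2 passed in all 18 alternatives. With no filter on low counts, 1 gene (Apoc1) had an adjusted p under 0.05, against 0 otherwise. That fit included control replicate 3, with 91 Apoc1 reads against 5 to 14 in each other library. The count of the pathway list, 3, was 0 by limma-voom, with filterByExpr, with at least 10 counts in every library, with the block, and under TMM, library totals and DESeq2 without control replicate 3, and ran from 0 (without control replicate 3 or any 1 of the M-Δx3,4 libraries) to 5 (without control replicate 1) when 1 library was left out. Of the same-numbered control and M-Δx3,4 libraries, those of replicate 2 deviated together and those of replicates 1 and 3 did not. The correlations, in that order, were 0.54, -0.21 and -0.31 over 4723 genes. Control replicate 1 was nearest to M-Δx3,4 replicate 3 (0.54), and control replicate 3 to M-Δx3,4 replicate 1 (0.28). The labels name no pairs, and whether cultures were paired under other numbers was not tested. The block, by replicate number, moved the count over all transcripts from 1071 to 685. By edgeR's quasi-likelihood test 0 of all transcripts had an adjusted p under 0.05 (1340 had an unadjusted one), against 4 in DESeq2 (1016 unadjusted), 118 without a filter and 55 without control replicate 1, where 3224 passed the threshold.

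Directions turned in 5 genes, and the cause was not tested. With 1 library left out, the log2 fold change ran from -0.06 to 0.21 in Abcg1, from -0.59 to 0.20 in Nr1h3, from -0.09 to 0.78 in Nr1h2, from -0.62 to 0.28 in Ch25h and from -0.38 to 0.10 in Npc2. Without control replicate 3, under TMM, library totals and DESeq2 in turn, it was -0.04, -0.05 and -0.06 in Abcg1, 0.29, 0.30 and 0.28 in Ch25h, and 0.11, 0.11 and 0.10 in Npc2. At 5 to 14 reads a library, the log2 fold change of Apoc1 without control replicate 3 had an SE of 0.74, and small changes could not be seen at this depth.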
